A study of Mus musculus with 9 samples.

Results

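The genes described are 43 immediate early, glucocorticoid-response and clock genes of the mouse, taken by symbol from the GENCODE annotation. For each gene, every differentially methylated region (DMR) in the authors' table that overlapped the gene body or lay within 10 kb of it was taken. This gave 18 of the 12949 listed DMRs, at 15 of the 43 genes. Hypothalamic DNA came from male C57/Bl6 pups on postnatal day 6. MMS pups had modified maternal separation, 1.5 h per day on a heating pad outside the home-cage with repeated turning onto the back, from postnatal day 4 to postnatal day 6, and were killed directly after the last session. Control pups were littermates left out of this procedure, with 2 of the 4 males of a litter in each group. DNA of 10 males per group was combined into 3 pools, and methylated DNA immunoprecipitation (meDIP), which captures fragments with an antibody against methylated cytosine, was sequenced from 3 control and 3 MMS pools. There were also 2 inputs and 1 IgG control. The separation was run in the afternoon and the hour at which controls were killed is not given in the sources used here, so for clock genes a difference in hour between the groups was not tested. The dissected hypothalamus is a mixture of cell types, and a change in methylation within a cell type cannot be told apart from a change in the mixture.

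Each DMR has 1 mean per group, the log2 of the authors' normalised reads, and no value per pool. The spread between pools is therefore unknown, no test between the groups was computed, and each difference is given as MMS minus control on the log2 scale without an error. The lowest mean that occurs is -0.17 in control and -0.24 in MMS, which is 0.889 and 0.847 normalised reads. A difference against a group at its lowest value has no readable size, and such groups are named as at the lowest value. A gene with no DMR is only a gene without a listed region, since the regions that were compared and not listed were not used here.

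Immediate early genes are transcribed within minutes of neuronal activity, without new protein synthesis. They include the AP-1 proteins of the Fos and Jun families, the zinc finger factors of the Egr family, and effectors such as Arc. Glucocorticoids act through a receptor that binds DNA, and Sgk1, Tsc22d3, Klf9 and Per1 are well-known targets of it. In the circadian clock, Clock or Npas2 pairs with Arntl to activate genes through E-boxes, the Per and Cry proteins repress that activity, and the kinases Csnk1d and Csnk1e phosphorylate Per proteins. The antibody reads only methylated cytosine, which in mammals lies mostly at CpG sites. The count of CpG sites within a region does not by itself set its reads. The region nearest to Klf9 holds 0 CpG sites and had 27.3 normalised reads in control.

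The sequences of the regions that the account turns on are given here as the plus strand of the mm10 reference, with CpG sites in capitals. Short DMRs are whole and wide ones are represented by the 200 bases with the most CpG sites. The first set holds the regions upstream of activity genes and the Sgk1 intron.
Jund upstream, chr8:70695381-70695580: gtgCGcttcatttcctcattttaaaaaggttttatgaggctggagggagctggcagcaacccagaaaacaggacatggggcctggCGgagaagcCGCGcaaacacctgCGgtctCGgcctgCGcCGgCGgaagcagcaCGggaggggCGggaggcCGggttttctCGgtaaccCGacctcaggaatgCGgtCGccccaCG
Egr2 upstream, chr10:67533833-67534032: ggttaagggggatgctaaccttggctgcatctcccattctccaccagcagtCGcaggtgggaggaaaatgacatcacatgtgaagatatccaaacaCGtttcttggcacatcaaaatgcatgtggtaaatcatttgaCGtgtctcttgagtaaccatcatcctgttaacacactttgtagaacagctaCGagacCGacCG
Egr4 upstream, chr6:85516355-85516573: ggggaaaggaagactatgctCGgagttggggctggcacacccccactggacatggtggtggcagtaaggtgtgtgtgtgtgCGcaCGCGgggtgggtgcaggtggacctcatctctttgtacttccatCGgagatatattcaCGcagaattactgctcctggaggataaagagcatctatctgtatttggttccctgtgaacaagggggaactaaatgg
Sgk1 intron, chr10:21885784-21885937: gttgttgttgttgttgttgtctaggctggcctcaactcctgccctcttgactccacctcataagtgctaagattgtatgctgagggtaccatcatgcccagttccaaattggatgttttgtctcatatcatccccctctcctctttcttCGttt

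The next set holds clock gene regions, shown because the Npas2, Per2, Bhlhe40 and Bhlhe41 regions all had control at its lowest value and the Csnk1e region had the higher mean in control.
Npas2 intron, first region, chr1:39246117-39246387: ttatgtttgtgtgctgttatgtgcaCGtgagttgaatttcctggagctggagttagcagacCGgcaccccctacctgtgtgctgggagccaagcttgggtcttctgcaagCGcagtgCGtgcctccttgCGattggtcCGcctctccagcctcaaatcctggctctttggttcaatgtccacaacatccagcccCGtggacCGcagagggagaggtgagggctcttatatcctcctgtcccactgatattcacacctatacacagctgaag
Npas2 intron, next region, chr1:39336541-39336824: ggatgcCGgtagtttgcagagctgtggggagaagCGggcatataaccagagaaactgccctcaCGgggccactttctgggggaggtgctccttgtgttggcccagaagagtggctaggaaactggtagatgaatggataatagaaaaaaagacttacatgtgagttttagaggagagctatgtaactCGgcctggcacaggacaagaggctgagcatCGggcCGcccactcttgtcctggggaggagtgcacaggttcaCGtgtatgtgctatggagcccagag
Per2 upstream, chr1:91461331-91461530: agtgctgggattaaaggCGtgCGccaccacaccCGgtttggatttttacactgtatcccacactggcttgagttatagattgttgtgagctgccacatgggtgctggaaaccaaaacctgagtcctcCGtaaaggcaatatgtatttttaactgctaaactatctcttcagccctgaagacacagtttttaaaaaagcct
Bhlhe40 downstream, chr6:108669461-108669660: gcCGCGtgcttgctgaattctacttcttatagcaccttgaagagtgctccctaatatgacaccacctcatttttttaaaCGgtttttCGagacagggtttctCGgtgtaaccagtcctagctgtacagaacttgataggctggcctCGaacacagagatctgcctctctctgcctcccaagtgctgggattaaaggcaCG
Bhlhe41 upstream, chr6:145868145-145868344: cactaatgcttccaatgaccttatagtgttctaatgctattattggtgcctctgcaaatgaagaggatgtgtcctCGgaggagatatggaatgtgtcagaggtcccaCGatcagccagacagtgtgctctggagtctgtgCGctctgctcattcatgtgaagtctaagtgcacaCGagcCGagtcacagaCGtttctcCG
Csnk1e intron, chr15:79448860-79449057: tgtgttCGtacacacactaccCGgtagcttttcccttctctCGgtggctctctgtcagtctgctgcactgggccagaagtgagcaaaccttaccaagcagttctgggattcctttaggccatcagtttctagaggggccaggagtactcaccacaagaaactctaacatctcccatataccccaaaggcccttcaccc

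The last set belongs to Fos and Per1, the genes of this group whose mRNA the study reports as raised by MMS, by quantitative PCR. The study's mRNA sequencing called only the gene D630033O11Rik as changed. It reports no correlation between DMRs at protein-coding genes and expression. The set holds part of the DMR nearest to Fos. It also holds the 250 bases before the RefSeq start of Fos and before one of the 2 RefSeq starts of Per1. These bases overlap no DMR.
Region nearest to Fos, chr12:85463539-85463738: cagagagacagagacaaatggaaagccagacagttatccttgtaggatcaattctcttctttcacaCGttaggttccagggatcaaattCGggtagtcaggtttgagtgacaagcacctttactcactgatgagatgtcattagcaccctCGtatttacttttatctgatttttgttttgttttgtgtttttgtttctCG
Fos promoter, chr12:85473640-85473889: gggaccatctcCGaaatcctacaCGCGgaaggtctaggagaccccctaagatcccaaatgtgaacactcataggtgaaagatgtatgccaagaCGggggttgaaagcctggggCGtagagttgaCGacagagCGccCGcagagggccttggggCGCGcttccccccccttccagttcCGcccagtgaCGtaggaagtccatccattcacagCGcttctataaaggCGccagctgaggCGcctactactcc
Per1 promoter, chr11:69099902-69100151: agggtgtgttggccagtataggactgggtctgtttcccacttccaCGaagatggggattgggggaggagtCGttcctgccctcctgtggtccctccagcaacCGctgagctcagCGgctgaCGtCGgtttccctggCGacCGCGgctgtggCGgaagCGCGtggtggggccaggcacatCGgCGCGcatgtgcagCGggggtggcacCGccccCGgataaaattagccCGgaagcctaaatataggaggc

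Neither Fos nor Per1 had a DMR in the gene body or within 10 kb. Fos (chr12:85473890-85477273, plus strand) encodes the inducible partner of Jun in AP-1 and is the standard marker of recent neuronal activity. The nearest listed region lay 10003 bp upstream, at chr12:85463050-85463887, and missed the 10 kb limit by 3 bp. It was intergenic, 838 bp wide with 11 CpG sites, and had a group mean of 6.09 in control and 4.86 in MMS, a difference of -1.23. In linear terms this was 68.1 normalised reads in control and 29.0 in MMS, so fewer methylated fragments were captured there in the MMS group. Per1 (chr11:69095217-69109960, plus strand), a clock repressor that is also induced by glucocorticoids, had its nearest region 23311 bp downstream, at chr11:69133271-69133791. That region lay at the promoter of another gene, Aloxe3, and had 2.06 in control and 4.26 in MMS. The Fos promoter sequence shown above has 15 CpG sites in 250 bases and the Per1 sequence 19. The 250 bases before the other RefSeq start of Per1, which overlap a UTR and are not shown, have 9.

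At the 10 kb limit, the members just inside were Dusp5, with a region 8306 bp away, and Egr4, whose farthest region was 8251 bp away. The next gene outside after Fos was Klf9, a glucocorticoid-induced Krüppel-like factor, at 12807 bp, with 4.77 in control and 2.43 in MMS. That region holds 0 CpG sites. For the 28 genes without a DMR the distance to the nearest listed region had a median of 37.2 kb and reached 282.5 kb for Tsc22d3 on chromosome X. That nearest region was higher in MMS for 17 of the 28 genes and higher in control for 11, where 62.6% of all listed DMRs were higher in MMS. For 11 of the 28 no region lay within 50 kb. Within 50 kb 32 of all 43 members had a region, where 54.7% of protein-coding genes did. Among the 11 were Egr1, the most widely used activity marker after Fos, at 177.0 kb, and Junb at 187.6 kb. Bdnf, the neurotrophin gene, was also among them, at 62.5 kb. Some of these nearest regions lie in other genes, such as Cacna1a for Ier2 and Ergic1 for Dusp1.

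**Figure D1:**
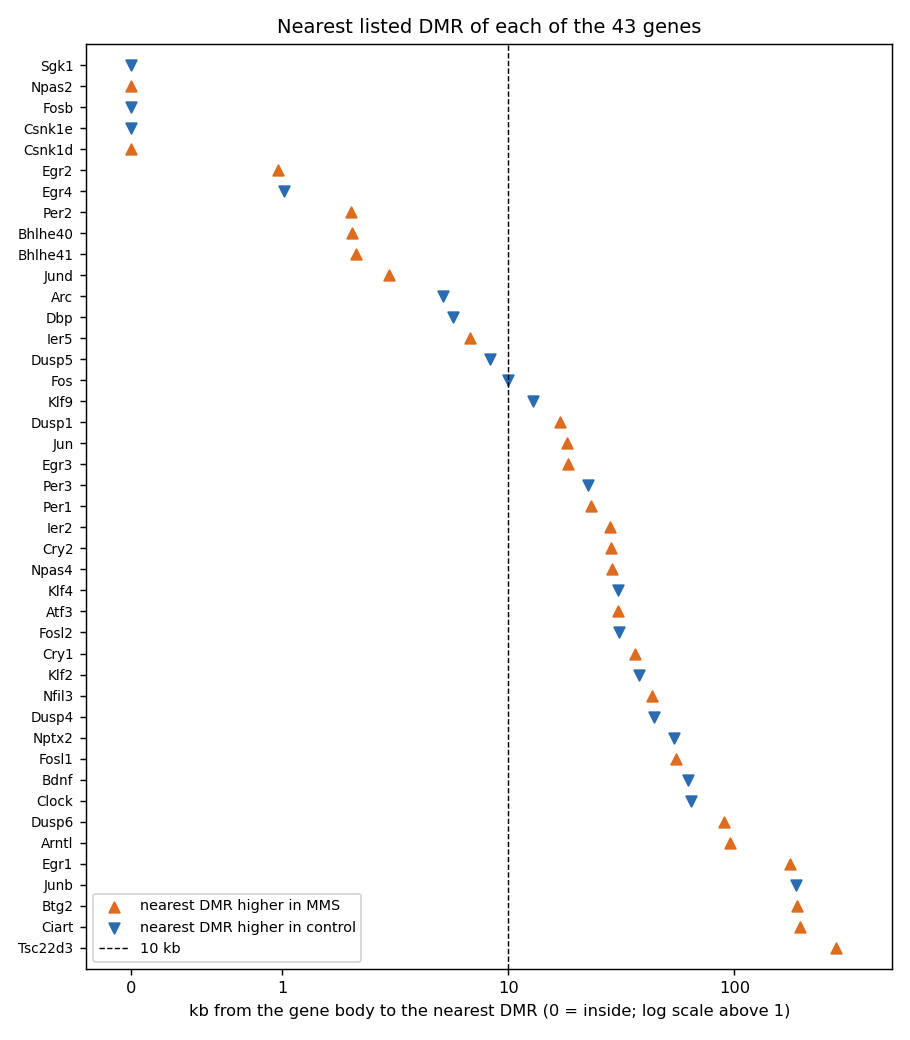
Distance in kb from the gene body to the nearest listed DMR for each of the 43 genes, with 0 for a DMR inside the gene and a log scale above 1 kb. Triangles pointing up mark a nearest DMR higher in MMS, triangles pointing down one higher in control, and the dashed line is the 10 kb limit. Fos sits on the limit at 10003 bp and Per1 at 23311 bp.

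The AP-1 genes gave DMRs at 2 of 8 (25.0%), where 28.6% of all protein-coding genes and 14.5% of those under 10 kb had one. Fosb, a Fos family member whose products accumulate with repeated activity, had a region across its 3′ end, at chr7:19302154-19303136. It covered 441 bases of the 3′ UTR and ran on into intergenic DNA. Its group means were 5.25 in control and 3.81 in MMS, or 38.1 and 14.0 normalised reads. The control mean was higher by 1.44 on the log2 scale, and both groups were well above the lowest value. Jund, the constitutively expressed Jun family member, had a region 2967 bp upstream of its GENCODE start, at chr8:70695322-70695982. The RefSeq promoter window of Jund, at chr8:70697489-70697788, lies nearer to this region than the GENCODE start does. Control was at the lowest value, -0.17, and MMS was at 3.50, or 11.3 normalised reads. With 30 CpG sites in 661 bp, 4.54 per 100 bp, it was the most CpG-dense of the 18 regions, and 17 of these sites are in the 200 bases shown. Fos, Fosl1, Fosl2, Jun, Junb and Atf3 had none. The nearest listed region of Jun, 18129 bp upstream in an intron of the antisense transcript Junos, had 1.82 in control and 4.83 in MMS.

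Of the 7 other activity-regulated transcription factors, Egr2 and Egr4 had DMRs and Egr1, Egr3, Npas4, Klf2 and Klf4 had none. This is 28.6% of them, and over all 25 activity genes 7 had a DMR (28.0%). Both sets have a median length of 5.32 kb, and the share was 28.6% among all protein-coding genes and 14.5% among those under 10 kb. Egr2, a zinc finger factor also known from myelination, had a region at chr10:67533119-67534502, which ends 973 bp before the first GENCODE start of the gene. The RefSeq gene extends further upstream, to 67534469, through predicted transcripts, and the region reaches the first exon of these. The group means were 1.03 in control and 4.91 in MMS, which is 2.04 and 30.1 normalised reads. The MMS mean was higher by 3.88, with control low but above its lowest value. Egr4, a relative of Egr1, was the only gene with 3 regions, and they did not share a direction. Upstream at chr6:85516355-85516573, control was at -0.17 and MMS at 3.76. Farther upstream at chr6:85521840-85521992, the means were 1.80 in control and 4.55 in MMS. Downstream at chr6:85509555-85510102, the order was the reverse, 5.26 in control and 3.36 in MMS. The gene lies on the minus strand, so higher coordinates are upstream. The farther upstream region had 1 CpG site in 153 bp and was soft-masked repeat over 86.9% of its length.

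Among the activity effectors, Arc and Ier5 had DMRs and Ier2, Btg2, Nptx2 and Bdnf had none. Arc, which controls AMPA receptor endocytosis at synapses, had a region 5163 bp downstream, at chr15:74662803-74663920. Its means were 6.10 in control and 5.22 in MMS, or 68.6 and 37.3 normalised reads. This was the smallest difference of the 18, -0.88, at the region with the highest control mean. Ier5, an immediate early gene linked to the heat shock response, had a region 6799 bp downstream, at chr1:155087512-155089562, with 4.34 in control and 6.15 in MMS. That region was the widest, 2051 bp with 24 CpG sites, and had the highest MMS mean, 71.0 normalised reads. Of the dual specificity phosphatases, which switch off MAP kinases, Dusp5 had a region, 8306 bp downstream at chr19:53550737-53551271, with 4.97 in control and 3.42 in MMS. Dusp1, Dusp4 and Dusp6 had none. The shares were 2 of 6 effectors (33.3%), with a median length of 3.72 kb, and 1 of 4 phosphatases (25.0%), with a median length of 13.0 kb. Among all protein-coding genes the share was 28.6%, under 10 kb it was 14.5%, and from 10 to 30 kb it was 23.4%.

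Of the genes grouped as glucocorticoid-response genes, Sgk1 had a DMR and Tsc22d3 and Klf9 had none. This is 33.3%, beside 28.6% of all protein-coding genes and 38.3% of those from 30 to 100 kb. Sgk1 itself is 117.7 kb long, and 61.9% of genes from 100 to 300 kb had a DMR. Sgk1 encodes a kinase whose mRNA rises quickly with glucocorticoids. Its region, at chr10:21885784-21885937, lies in an intron, 3.68 kb after the nearest coding start. RefSeq gives 6 promoter windows for this gene. Only the most upstream, at chr10:21881934-21882233, lies near the region, and the next begins at chr10:21978422. The means were 4.90 in control and 1.24 in MMS, or 29.9 and 2.36 normalised reads. This was the largest difference towards control among the 18, -3.66, and the lowest MMS mean, yet MMS stayed above its own lowest value. The region has 1 CpG site in 154 bp, the lowest density of the 18, and 42.2% of it is soft-masked repeat, as the sequence above shows with a run of gtt at its start.

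**Figure D2:**
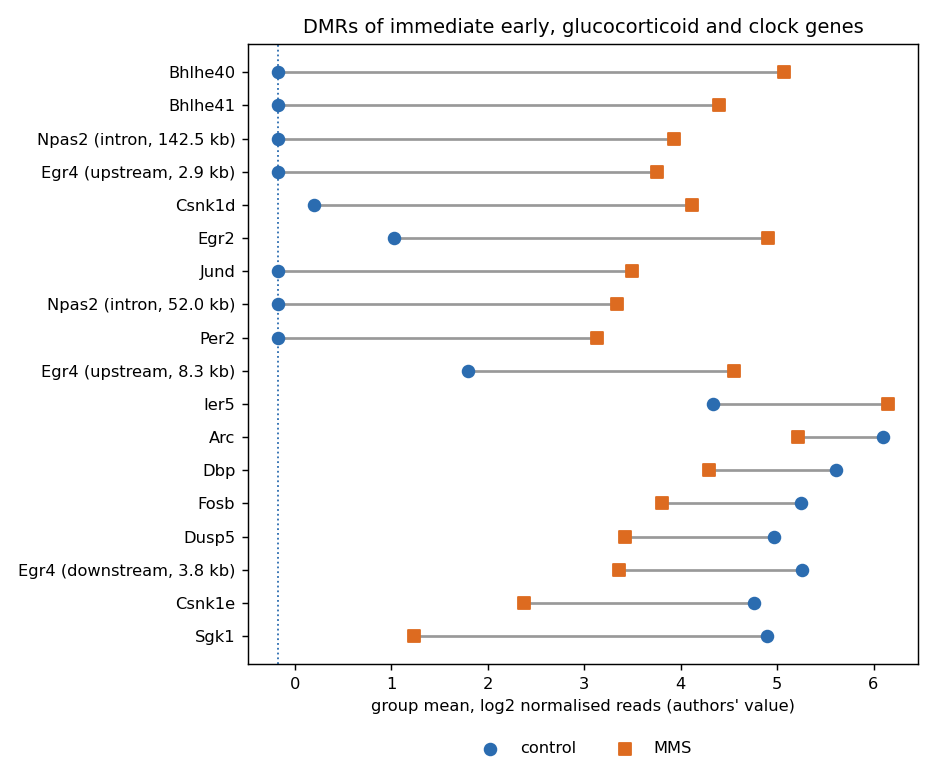
Group mean in log2 normalised reads (x axis) in control (circles) and MMS (squares) for the 18 DMRs, ordered by the difference, with the dotted line at the lowest control value of -0.17. In 7 DMRs the control circle sits on that line, and in all 7 DMRs higher in control the MMS square stays above it.

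Clock genes gave DMRs at 7 of 15 (46.7%), with a median length of 30.4 kb. Of all protein-coding genes 28.6% had one, and of those from 30 to 100 kb 38.3%. The 15 genes run from 3.75 kb (Ciart) to 169.5 kb (Npas2), so no single length class matches them. Of the activators, Npas2, the partner of Arntl that can stand in for Clock in the forebrain, had a pair of regions in its introns. In the first, at chr1:39246117-39246387, control was at -0.17 and MMS at 3.34. In the next, at chr1:39336541-39336824, control was at -0.17 and MMS at 3.93. Each holds 1 E-box (CACGTG, the same on both strands), starting at base 39246140 in the first and 39336798 in the next, and the central CpG of each is in capitals in the sequences above. Its paralog Clock, 94.9 kb long, and Arntl, 106.7 kb long, had no region, and their nearest lay 64.0 and 95.2 kb away.

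Of the 8 repressors, Per2, Bhlhe40 and Bhlhe41 had DMRs (37.5%, beside 28.6% of all protein-coding genes), each with control at its lowest value and a higher MMS mean. Of all listed DMRs 62.6% were higher in MMS, and 52.7% of those had control at its lowest value. Per2, a negative limb protein of the clock, had its region 2007 bp upstream, at chr1:91461331-91461860, with an MMS mean of 3.13. It holds 4 CpG sites in 530 bp, and all 4 lie in the 200 bases shown, of which 152 are soft-masked repeat. Bhlhe41, also called Dec2, which binds E-boxes and damps the activators, had a region 2119 bp upstream, at chr6:145867677-145868543, with an MMS mean of 4.40. Bhlhe40, or Dec1, its close relative, had one 2044 bp downstream, at chr6:108668969-108670735, with an MMS mean of 5.07. This is 33.6 normalised reads in MMS, over 27 CpG sites in 1767 bp. Per1, Per3, Cry1, Cry2 and Ciart had no region. The nearest region of Per3, 22475 bp downstream in an intron of Camta1, had 4.09 in control and 2.17 in MMS, and those of Cry1 and Cry2 had control at -0.17 and MMS at 3.60 and 4.23.

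Both clock kinases had a DMR, in opposite directions, where 28.6% of all protein-coding genes and 38.3% of those from 30 to 100 kb had one. With 2 genes this count is a description. Csnk1d had one at chr11:120962818-120963379, wholly within 3′ UTR sequence of the gene and at the promoter of the noncoding gene Gm28192. Its means were 0.20 in control, within 0.5 of the lowest value, and 4.12 in MMS. In Csnk1e the region was intronic, at chr15:79448860-79449057, 5.04 kb before the nearest coding start, with 4.76 in control and 2.38 in MMS, or 27.1 and 5.21 normalised reads. Of the clock output genes, Dbp, a D-box activator, had a region 5718 bp downstream, at chr7:45715921-45716212, with 5.61 in control and 4.29 in MMS. This region overlaps Rpl18 and the promoter of Sphk2, and it was the only one of the 18 for which another protein-coding gene lay nearer than the member. Nfil3, the D-box repressor, had none, so that 1 of these 2 genes had a DMR beside the same 28.6% of all protein-coding genes.

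**Figure D3:**
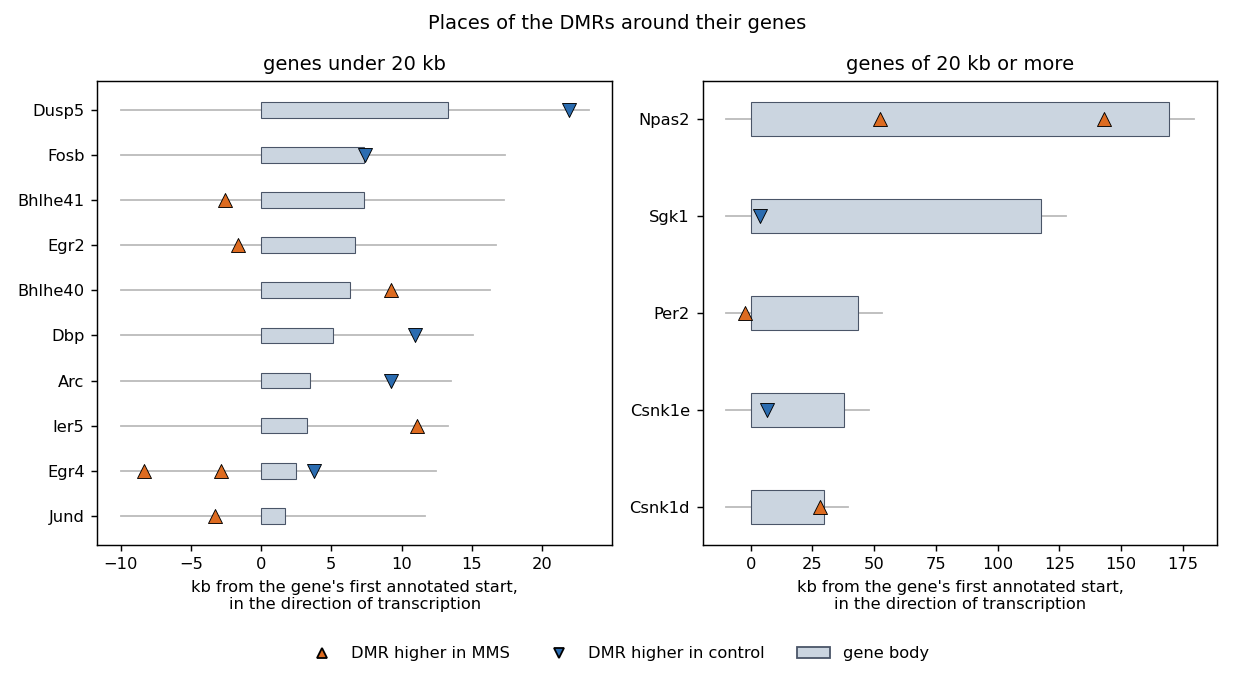
Centres of the 18 DMRs in kb from the first annotated start of the gene, in the direction of transcription, for the 15 genes that have one. Bars are gene bodies and thin lines the 10 kb windows, triangles pointing up are DMRs higher in MMS and triangles pointing down DMRs higher in control. All 6 upstream regions point up.

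Over the 18 regions, 11 had the higher mean in MMS (61.1%, 95% Wilson interval 38.6% to 79.7%, which covers the number of regions and no spread between pools). Among all listed DMRs this share was 62.6%, so the members' direction was near that of the table as a whole. With both groups above the lowest value, 10 of the regions were left and 30% of them were higher in MMS. That share was 45.3% in the table. Control was at its lowest value in 8 of the 11 regions higher in MMS (72.7%), where the table had 52.7%. In the 7 regions higher in control, MMS was at its lowest value in 0, where the table had 4.6%. The 9 regions of the activity genes had 5 higher in MMS and 2 with control at its lowest value. The 8 regions of the clock genes had 6 higher in MMS, all 6 with control at its lowest value. Whether the clock and activity regions differ was not tested. The median difference in regions higher in control was -1.55, and over the table it was -1.73. No median difference is given for regions higher in MMS, since most had control at its lowest value, and their MMS means had a median of 4.12 beside 4.09 over the table.

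By place, 6 regions lay upstream of their gene, 6 downstream and 6 in the gene body. The upstream regions, of Jund, Egr2, Egr4, Per2 and Bhlhe41, were all higher in MMS, where 61.7% of pairs of a protein-coding gene and an upstream DMR were. Downstream 2 of 6 were higher in MMS (64.7% over all genes), and in gene bodies 3 of 6 (61.9%). With 6 regions in a place, these counts are a description. With a promoter taken as 1000 bp before to 100 bp after a start, the centres of 2 regions lay in one, that of Sphk2 (Dbp region) and that of Gm28192 (Csnk1d region), and 0 lay in a promoter of the gene itself by GENCODE starts. The centre of the Egr2 region does lie within 1000 bp before the predicted RefSeq start of Egr2. RefSeq promoter windows were at hand for 33 of the 43 genes, 57 windows in all, and 0 overlapped a DMR, where 0.329% of all windows did. At that background a count of 0 in 57 is no result about these genes. The windows do not include the predicted start of Egr2, where a window would have overlapped the Egr2 region. Those 57 windows had a median of 21 CpG sites in 300 bases against 7 over all windows.

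**Figure D4:**
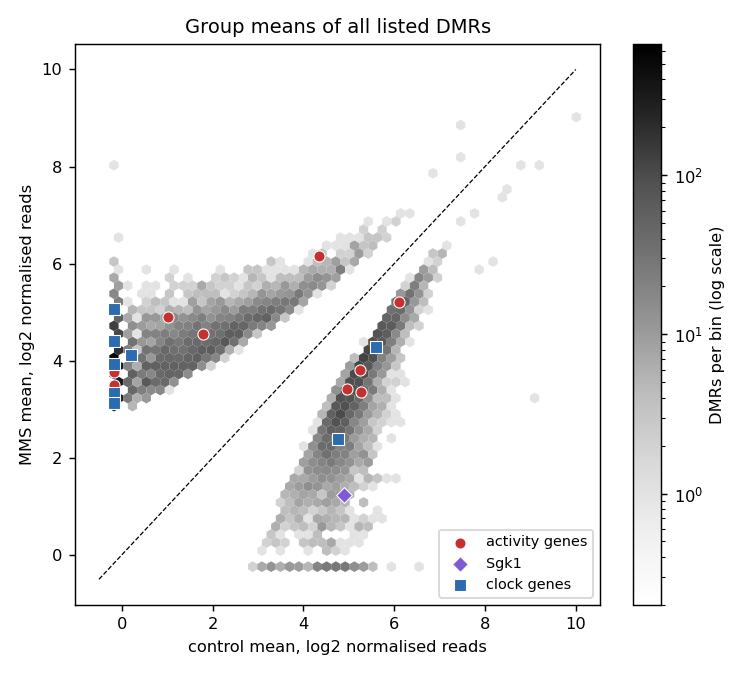
Mean of all 12949 listed DMRs in control (x axis) and MMS (y axis), log2 normalised reads, as grey bins shaded by count on a log scale, with the 18 regions of activity genes (circles), Sgk1 (diamond) and clock genes (squares) on top and the line of equal means dashed. The 6 clock regions higher in MMS lie within 0.5 of the left edge, the lowest control value, and Sgk1 lies low in the arm of regions higher in control.

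A DMR was found at 15 of 43 genes (34.9%), against 28.6% of all 21951 protein-coding genes. A longer gene offers a larger target, so the count was also read by gene length. Of the 22 members under 10 kb, 9 had a DMR (40.9%), where 14.5% of protein-coding genes of that length did. The 9 are Fosb, Jund, Egr2, Egr4, Arc, Ier5, Bhlhe40, Bhlhe41 and Dbp, and in 8 of them the regions lay wholly outside the gene body. Without olfactory, vomeronasal and trace amine receptor symbols the background of short genes was 16.3%. For short genes with 10 or more CpG sites in a RefSeq promoter window it was 19.8%, beside 6 of 15 members (40.0%). Of members from 10 to 30 kb 2 of 8 had a DMR (23.4% of genes), from 30 to 100 kb 2 of 10 (38.3%), and from 100 to 300 kb 2 of 3 (61.9%). Over the windows of all members there were 8.92 DMRs per Mb, and over those of all protein-coding genes 6.08. These shares carry no test, and the members were not drawn at random.

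**Figure D5:**
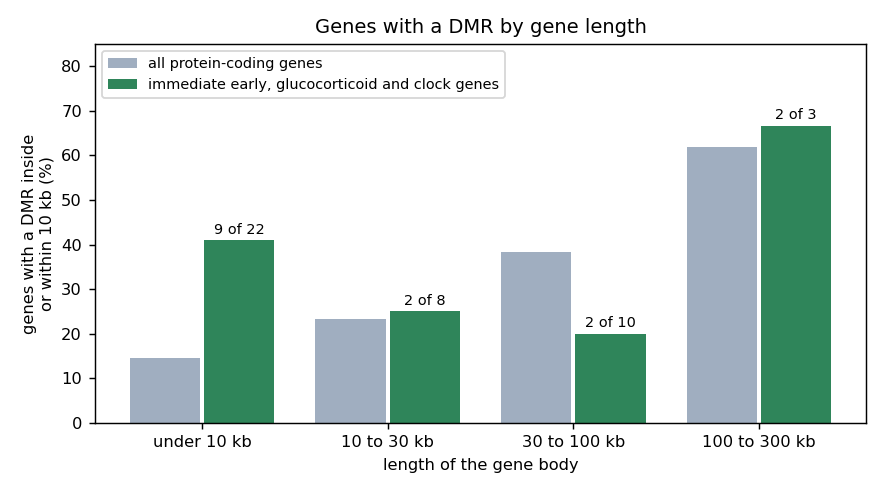
Share of genes with a DMR inside or within 10 kb (y axis, percent) by length of the gene body, for all protein-coding genes (grey) and for the 43 genes (green, with the count above each bar). The bar of members under 10 kb stands at 40.9% against 14.5%, that of members from 30 to 100 kb at 2 of 10 against 38.3%.

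The 18 regions resembled the table in sequence. Their width had a median of 541.5 bp (544 bp in the table), their CpG density 1.51 per 100 bp (1.32) and their GC content 48.9% (47.4%). Soft-masked repeat made up a median of 15.1% (20.7%). All 18 aligned to the reference at a single place at a minimum of 100 bp and 95% identity. E-boxes were found in 4 of the 18, those of Egr2, Ier5 and the pair in Npas2, and in 11.2% of all DMRs. The AP-1 site TGAGTCA or TGACTCA, each the other's reverse complement, was found in 1, the Dusp5 region (9.6% of all DMRs). The CRE (TGACGTCA), the D-box (TTATGTAA or TTACGTAA, both strands) and the EGR site (GCGTGGGCG or GCGGGGGCG, both strands) were found in 0, and in 0.726%, 1.77% and 0.255% of all DMRs. The serum response CArG box, searched on both strands, was found in the Csnk1d region (3.11% of all DMRs). The glucocorticoid response element was searched only as the exact letters AGAACA and TGTTCT with 3 bases between them. It was found in 0 of all 12949 DMRs, and in 3 of 32851 RefSeq promoter windows. A word this rare gives no result about such elements. The single arm AGAACA, on either strand and contained in the full element, was found in 7 of the 18 and 41.1% of all DMRs. DMRs differ in width, and a match is a run of letters and not a bound site.

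Other genes of the same pathways were counted the same way, to be read against 28.6% of all protein-coding genes with a DMR and 62.6% of all DMRs higher in MMS. Of 36 other immediate early and activity genes, 4 had a DMR (11.1%), with 2 regions in each direction. Nr4a1, an orphan nuclear receptor induced by activity, had control at -0.17 and MMS at 4.35, Zfp36, which destabilises mRNA, had 1.34 and 4.19, and Nab2, a co-repressor of Egr proteins, had 4.76 and 2.70. The other members of that receptor family, Nr4a2 and Nr4a3, had none. Nr4a3 mRNA is also reported by the study as raised by MMS, by quantitative PCR. Of 31 other glucocorticoid genes, 15 had a DMR (48.4%), with 10 regions higher in MMS and 12 higher in control. The receptor coactivator Ncoa2 had control at -0.17 and MMS at 4.94, the glucocorticoid-induced factor Zbtb16 had 0.50 and 5.53, and the receptor co-chaperone Fkbp5 had 4.71 in control and -0.24, the lowest value, in MMS. These are the regions whose computed difference was largest, and each of the 3 genes had more than 1 region. In Fkbp5 the other region had control at -0.17 and MMS at 3.40, and in Zbtb16 the other 4 were higher in control. The glucocorticoid receptor gene Nr3c1 had none, and the mineralocorticoid receptor gene Nr3c2, 345.6 kb long, had 2, at 5.44 and 3.91 and at 6.17 and 5.28. Of 27 other clock genes, 13 had a DMR (48.1%), with 19 regions higher in MMS and 6 higher in control. By the computed difference Rorb, Rora and Sirt1 came first, and in the region concerned control was at -0.17 and MMS at 4.14, 4.08 and 4.08, so that the order has no meaning as size. Timeless, a gene of replication and clock function, had 5.76 in control and 1.58 in MMS, with both groups above their lowest values. Rora had 6 regions, 4 higher in MMS and 2 higher in control. Sirt1 had 3, and one of them was higher in control, with 5.62 in control and 3.68 in MMS. Rorb and Rora encode nuclear receptors that drive Arntl, and Sirt1 a deacetylase that acts on clock proteins. Rora spans 734.5 kb, and the median length was 12.0 kb in the first list, 13.6 kb in the next and 34.8 kb in the clock list, so the shares are not on equal footing (23.4% of genes from 10 to 30 kb and 38.3% of those from 30 to 100 kb had a DMR).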

How the data were processed

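meDIP libraries were made from 3 control and 3 MMS pools of hypothalamic DNA, with 2 inputs and 1 IgG control. By the methods of the study, mapping to mm10 was done in Torrent Suite, broad peaks were called against inputs by MACS2 (2.1 in the submitters' processing notes), and DiffBind with DESeq2 compared the groups. The deposited values are log2 normalised reads, averaged by the authors over every library, the control libraries (column named untreated) and the MMS libraries (named treated). The study also states a normalisation to a pooled input of each group and a subtraction that used the IgG control. How these steps bear on the lowest values was not tested. The depth behind each value is unknown. The authors' fold, p-value and FDR columns were not used as results. All 12949 rows were within the authors' FDR threshold of 0.05, and all positions lay within the GRCm38 chromosomes.

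DMRs were joined to genes of GENCODE vM21 by any shared base within 10 kb. A group within 0.5 of the lowest value of its column was counted as at it. The overlap code was tested on planted regions. Sequences came from GRCm38.p6, promoter windows (250 bases before to 50 after a start) from RefSeq on the same build, and alignments from BLAST 2.17.0. Python 3.11.15, pandas 2.3.3 and scipy 1.17.1 were used. Members, lists and alternatives were chosen with earlier results of these data known. All members are named, and of each other list the 3 genes with the largest difference. Nr4a2, Nr4a3, Nr3c1, Nr3c2 and Timeless were named after their values were seen. The inputs and the IgG control were not analysed by themselves.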

Additional observations from a re-analysis of the deposited data

How the results depend on the processing

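The counts rest on the window. In gene bodies alone there were 6 DMRs at 5 genes, and within 50 kb 53 DMRs at 32 genes, where 18.9% and 54.7% of protein-coding genes had one. With both groups above the lowest value 10 DMRs at 9 of the 43 genes were left, where 21.6% of protein-coding genes had one. Of these DMRs 30% were higher in MMS, against 45.3% in the table. A minimum difference of 2 gave 83.3% higher in MMS, against 80.6%. The first limit removed only DMRs higher in MMS among the 18, since none of the 18 had MMS at its lowest value. A minimum width of 300 bp left 11 DMRs at 11 genes, where 23.0% of protein-coding genes had one. With promoters widened to 2000 bp before and 500 bp after a GENCODE start, and any overlap counted, 4 DMRs in place of 2 touched one. The added regions were those of Egr2, at its own promoter, and Fosb, at that of Gm26802. Windows of 5 and 20 kb, the DMR's centre, coding transcripts alone, RefSeq genes and the other limits for the lowest value kept each count within 1.5 times the reported one. No paired analysis was possible because the values are 1 mean per group, and for the same reason no pool could be left out. The 2 other backgrounds for short genes and the shares by place were added after the data were seen. Fos gains its region at any window of 10003 bp or more.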
